A study of Homo sapiens with 12 samples.

Results

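FR2 against the eGFP control was compared in 6 of the 12 RNA-seq libraries of a study of CD16 fusion receptors, with 3 FR2 and 3 CTRL libraries chosen by their sample labels. All libraries were labelled as YT, an established human NK-like lymphoid cell line, infected with a lentiviral vector and studied without stimulation. CTRL cells carried eGFP alone. FR2 cells carried hnCD16-DAP10-CD3ζ, in which the ectodomain of a high-affinity, cleavage-resistant CD16 is joined to the signalling parts of DAP10 and CD3ζ. The other 6 libraries came from cells with hnCD16 alone or with FR1, which also holds the 2B4 domain, and serve here only as a reference. By the methods of the study, the vectors drove the insert from the EF1A promoter and eGFP-positive cells were sorted. The methods mention independent experiments for cell culture work in general, but neither they nor the labels say that the sequenced replicates of a group were separate cultures.

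The libraries held between 17714566 and 18729019 counts. The construct was checked first. FCGR3A, the CD16a gene, had 0 counts in each of the 3 CTRL libraries and 1110, 1132 and 1012 in the 3 FR2 libraries, at least 407-fold higher in FR2. FCGR3B, a near-identical copy to which RSEM can assign part of the same reads, had 0 counts in each CTRL library and 126, 112 and 139 in FR2. Transcripts of the 2 signalling parts were already present in CTRL. HCST, the DAP10 gene, measured 9.59 ± 0.507 CPM in CTRL and 18.4 ± 0.762 in FR2, and CD247, the CD3ζ gene, 78.5 ± 4.66 and 119.6 ± 1.20. CPM is the usual count relative to library size, here after TMM scaling, and errors of CPM are SDs of 3 libraries. Both genes stayed below the fold threshold used here, with log2 fold changes of 0.94 ± 0.076 and 0.61 ± 0.051 (SE). CD244, the gene of 2B4, which FR2 does not carry, rose from 6.30 ± 0.478 to 115 ± 4.06 CPM.

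The CTRL and FR2 libraries also stood apart in the markers of the cell type on their label. Of 18 NK cell markers, 12 were higher and 2 lower in FR2, and their summed level ran from 64.6 to 73.1 CPM in CTRL and from 4867 to 4967 in FR2. GZMB, the cytotoxic granule protease, averaged 0.687 CPM in CTRL and 2557 in FR2, PRF1 (perforin) 0.437 and 543, and TBX21, a transcription factor of NK cells, 0.0498 and 72.2. These 3 genes were thus at or near 0 in CTRL, whereas KLRF1 and TYROBP were near 0 in both groups. The 2 lower markers were GZMA (21.1 CPM in CTRL and 6.49 in FR2) and NCR3 (5.40 and 0.131). CTRL did not lack NK transcripts altogether, since 6 of the 18 markers had 1 CPM or more in every CTRL library. In FR2, 14 did. Of 12 T cell markers in the table, 11 were lower in FR2 and 1, CD28, was higher. Their sum was 1482 to 1592 CPM in CTRL and 173 to 185 in FR2, with CD3D at 439.6 and 0.0937 CPM and the transcription factor TCF7 at 399 and 1.999. Of 8 B cell markers in the table, PAX5 was higher in FR2 (a mean of 46.3 CPM, with 0.118 in CTRL) and 3 were lower. The epithelial list summed to 5.15 to 6.17 CPM in CTRL and 5.15 to 5.48 in FR2. The hnCD16 libraries resembled CTRL (NK sum 68.6 to 75.2 CPM) and the FR1 libraries resembled FR2 (4952 to 5203). By a rule of at least 4-fold between every CTRL and every FR2 library, 7 of 8 Y chromosome genes in the table were counted as apart. That rule counts a gene at 0 in all libraries of 1 group whatever its level in the other. The count is therefore given without weight. No FR2 library had the marker profile of CTRL and no CTRL library that of FR2. The marker values go against the label of a single cell line for CTRL and FR2. The construct and a difference in cell line or cell population thus cannot be told apart in this comparison. In bulk RNA, fewer cells of a type and less RNA per cell cannot be told apart either.

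**Figure D1:**
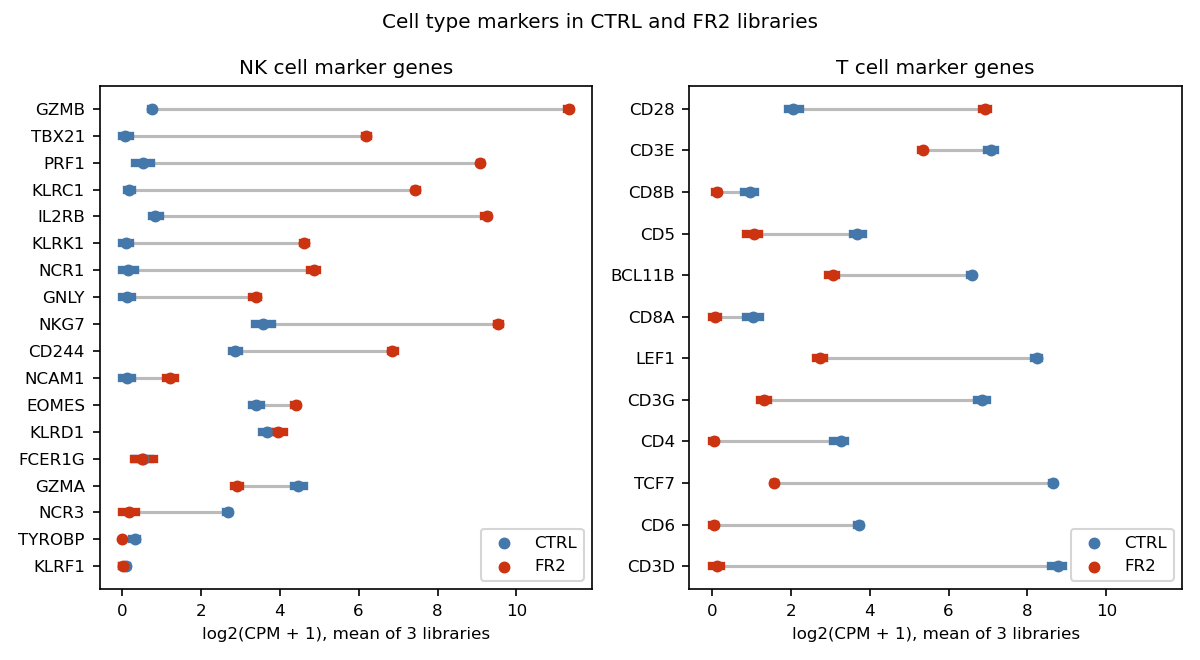
NK cell markers (left) and T cell markers (right) in CTRL (blue) and FR2 (red), as log2(CPM + 1) on the x axis, with points for the mean of 3 libraries and bars from the lowest to the highest library. GZMB, PRF1, IL2RB and TBX21 sit near 0 in CTRL and high in FR2, and CD3D, TCF7 and LEF1 lie the other way round.

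Lymphocytes adhere through integrins, paired α and β chains that bind matrix proteins or ligands on other cells and connect through adaptor proteins to actin filaments. The membrane skeleton, myosins and microtubules shape the contact and move granules to it, which is the step before an NK cell kills. Small GTPases, heterotrimeric G proteins, phospholipases and protein kinases pass receptor signals to both systems, and ion channels and solute carriers set the calcium, potassium, pH and metabolite levels that these steps use. Genes of these 4 themes were taken as 31 families defined by gene symbol.

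Of 2835 listed genes in the table, 2049 passed the count filter and were tested, and 996 of these were differentially expressed genes (DEGs) between FR2 and CTRL, 516 higher and 480 lower in FR2. To be a DEG, a gene needed a log2 fold change of 1 or more in size and an adjusted p no higher than 0.05 in edgeR's quasi-likelihood test with Benjamini-Hochberg adjustment over all 13657 tested genes. The background was high, since 38.2% of all tested genes were DEGs, 18.7% higher and 19.6% lower in FR2. The share was 59.9% for adhesion (197 of 329 genes), 48.8% for signalling (341 of 699), 47.0% for the cytoskeleton (201 of 428) and 43.3% for transport (257 of 593). The median absolute log2 fold change was 1.52 in adhesion, 0.97 in signalling, 0.91 in the cytoskeleton and 0.80 in transport, beside 0.70 over all tested genes. The signed median stayed near 0 in all 4 themes, from -0.10 to 0.06, beside -0.04 over all tested genes, which TMM scaling centres. Higher and lower DEGs numbered 93 and 104 in adhesion, 103 and 98 in the cytoskeleton, 183 and 158 in signalling and 137 and 120 in transport. With scaling by library size only, they numbered 92 and 107, 89 and 108, 169 and 170, and 126 and 130 in the same order. Outside adhesion, which direction led thus depended on the scaling.

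Some of the changes were switches between silence and expression. A gene was called on in a group at 1 CPM or more in every library, and at the floor at 3 counts or fewer in every library. Of the 2049 genes, 72 were on in FR2 and at the floor in CTRL (3.51%, with 2.53% over all tested genes), and 99 were on in CTRL and at the floor in FR2 (4.83%, with 3.74%). The libraries of the groups did not overlap for 1646 of the 2049 genes, or 80.3%, which was no more than the 81.2% over all tested genes.

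**Figure D2:**
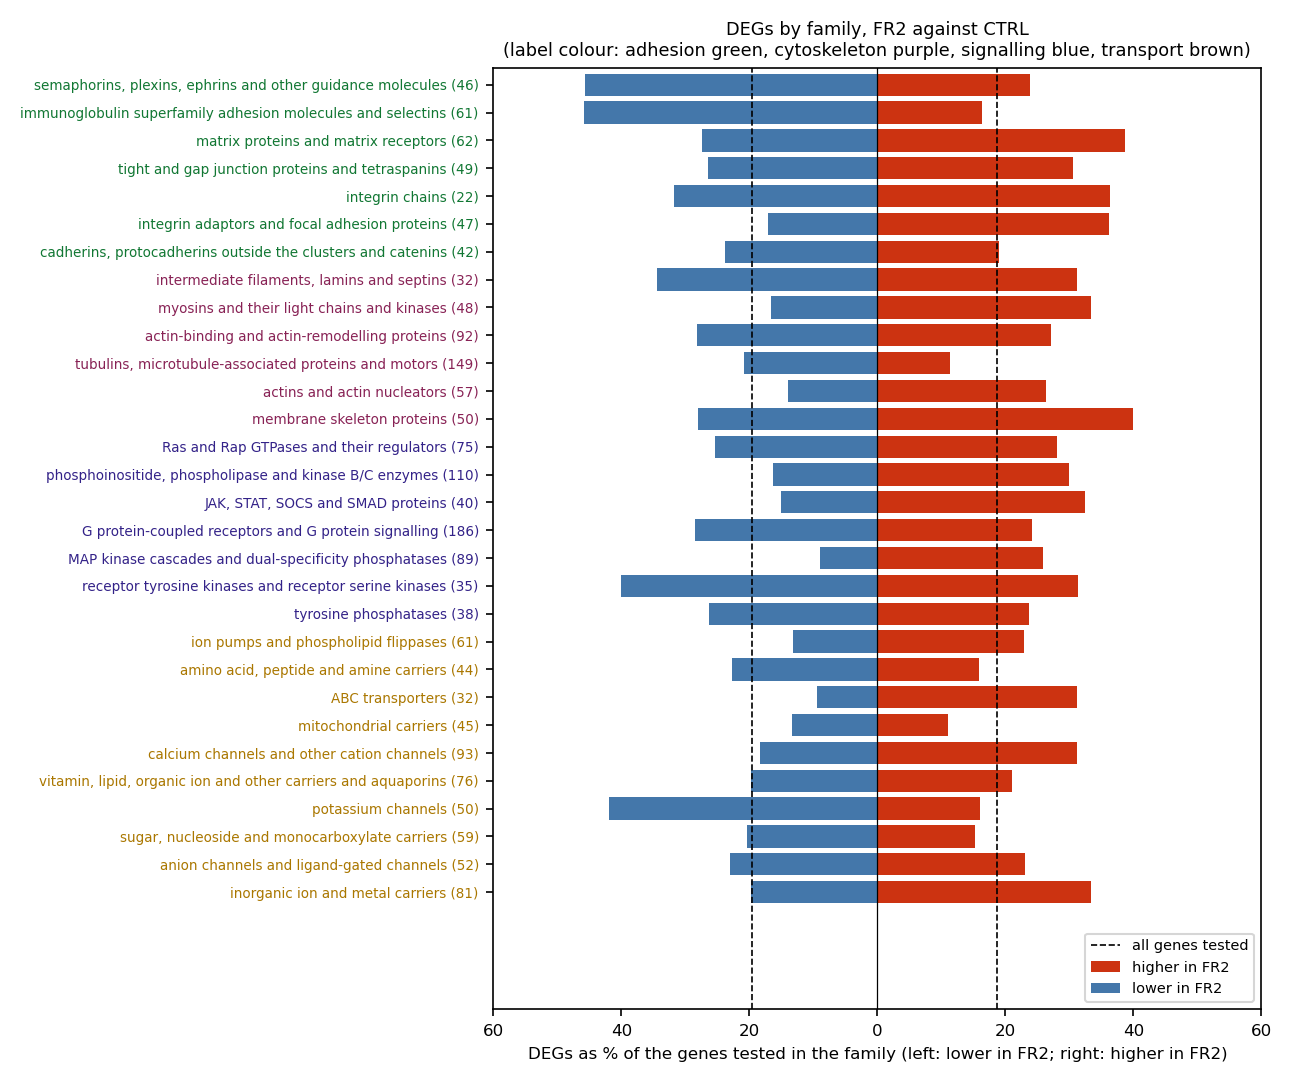
Share of tested genes that were DEGs in each of 30 families, higher in FR2 to the right (red) and lower to the left (blue), with the number of genes tested in parentheses and the share over all tested genes as dashed lines (18.7% and 19.6%). Receptor tyrosine and serine kinases (71.4%), guidance molecules (69.6%) and integrin chains (68.2%) had high shares of DEGs, and mitochondrial carriers (24.4%) and microtubule proteins (32.2%) lay below the background.

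Integrin chains moved in both directions. Of 22 chains tested, 8 rose in FR2, 7 fell and 7 did not pass both thresholds. ITGB7, the β7 chain of the gut-homing integrin, had 1.12, 1.05 and 0.746 CPM in the CTRL libraries and 81.4, 87.1 and 82.3 in the FR2 libraries, a log2 fold change of 6.42 ± 0.20 (SE). ITGB2, the β2 chain shared by the leukocyte integrins, went the other way, with 42.7, 45.3 and 38.2 CPM in CTRL and 3, 1 and 1 counts in FR2, at least 248-fold lower. Every FR2 library was above every CTRL library for ITGB7 and below for ITGB2, where 81.2% of all tested genes had groups that did not overlap. The α chains that pair with β2 did not follow it. ITGAL, the LFA-1 α chain, rose from 23.8 ± 1.94 to 118 ± 4.38 CPM, ITGAX (CD11c) from 0.755 ± 0.0590 to 46.8 ± 2.40, and ITGAM (CD11b) from 0.201 ± 0.0505 to 2.04 ± 0.411. The partners of β1 also moved apart. ITGB1 rose from 273 ± 1.69 to 796 ± 10.7 CPM, whereas ITGA5, the fibronectin receptor α chain, fell from 28.0 ± 2.005 CPM to 1, 1 and 0 counts in the 3 FR2 libraries and ITGA6, a laminin receptor chain, from 64.9 ± 1.34 to 5.17 ± 0.0867 CPM. ITGAV, which binds vitronectin with several β chains, fell from 36.6 ± 4.76 to 0.453 ± 0.206 CPM. ITGA4, which pairs with β1 or β7, was expressed in both groups, at 385 ± 37.2 CPM in CTRL and 563 ± 23.3 in FR2, and its log2 fold change of 0.55 (95% interval 0.41 to 0.69) stayed below the fold threshold although it passed the p-value threshold (adjusted p = 5.84e-07 by edgeR's quasi-likelihood test with Benjamini-Hochberg adjustment).

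**Figure D3:**
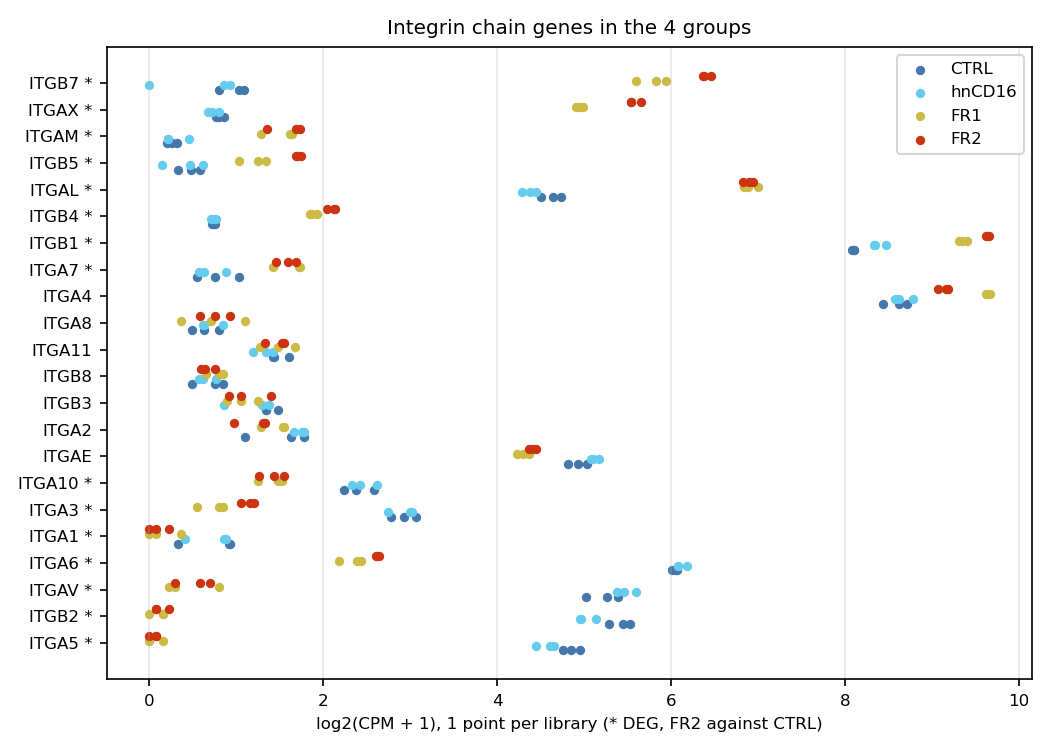
All 22 tested integrin chain genes as log2(CPM + 1), 1 point per library, in CTRL, hnCD16, FR1 and FR2, with DEGs between FR2 and CTRL marked by an asterisk. ITGB7, ITGAX, ITGAL and ITGB1 lie to the right in FR2, ITGA5, ITGB2, ITGAV and ITGA6 to the left, and for each of these the hnCD16 points lie by CTRL and the FR1 points by FR2.

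Adaptors that join integrins to actin had 25 DEGs among 47 genes, 17 higher and 8 lower in FR2. TNS3 (tensin-3, chr7:47275154-47582558 on GRCh38), which tethers integrin tails to actin at focal adhesions, had 0, 4 and 2 counts in the CTRL libraries and 283, 283 and 274 CPM in FR2, a log2 fold change of 11.35 ± 0.16 (SE). PDLIM1, a PDZ and LIM domain protein that binds α-actinin (chr10:95237572-95291012), had 1, 0 and 1 counts in CTRL and 177, 181 and 171 CPM in FR2, at least 1166-fold higher. Both genes were silent or nearly so in all CTRL libraries. The related PDLIM2 fell, from 17.2 ± 0.555 to 0.641 ± 0.0597 CPM. LPXN (leupaxin), a paxillin-family adaptor of blood cells, was expressed in both groups, with a log2 fold change of 0.78 (95% interval 0.68 to 0.89) below the fold threshold.

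Matrix proteins and their receptors had 41 DEGs among 62 genes, 24 higher and 17 lower. COL6A3, the α3 chain of collagen VI (chr2:237324003-237414328), had 4, 0 and 1 counts in CTRL and 140.2, 136 and 133 CPM in FR2. LGALS3, the galactoside-binding lectin galectin-3 (chr14:55124110-55145423), had 0.409, 0.200 and 0.448 CPM in CTRL and 168, 168 and 164 in FR2, a log2 fold change of 8.86 ± 0.13 (SE). ADAM33, a membrane metalloprotease, fell from 29.2 ± 1.94 to 0.340 ± 0.114 CPM. Both COL6A3 and LGALS3 were also high in FR1, at means of 93.05 and 178 CPM.

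Adhesion molecules of the immunoglobulin superfamily and selectins, which join cells to each other, had 38 DEGs among 61 genes, 10 higher and 28 lower in FR2, so that 45.9% fell where 19.6% did over all tested genes. CADM1, an adhesion molecule that lymphocyte receptor CRTAM recognises on other cells, nevertheless rose, from 1, 0 and 1 counts in CTRL to 126, 119 and 119 CPM in FR2, at least 802-fold. PECAM1, the platelet and endothelial adhesion molecule, averaged 72.0 CPM in CTRL and 1.49 in FR2. It made up most of the endothelial list, whose sum was 69.3 to 76.7 CPM in CTRL and 1.79 to 2.46 in FR2, with 2 of 2 tested genes lower. JAM3, a junctional adhesion molecule, had 66.6, 64.6 and 60.2 CPM in CTRL and 1, 2 and 2 counts in FR2, at least 376-fold lower. Tetraspanins and junction proteins split evenly, with 15 of 49 genes higher and 13 lower. TSPAN7 (chrX:38561542-38688920), a tetraspanin, had 697, 639.7 and 616 CPM in CTRL and 0.504, 0.339 and 0.229 in FR2, while TSPAN33 had 1, 0 and 2 counts in CTRL and 115, 118 and 109 CPM in FR2. PARD3, a polarity scaffold of cell junctions (chr10:34109560-34815325), had 71.4, 69.5 and 68.5 CPM in CTRL and 0.168, 0.226 and 0.114 in FR2. The CTRL and FR2 libraries of each of these genes did not overlap, as was so for 81.2% of all tested genes. Of 42 cadherins and catenins, 8 rose and 10 fell. CDH2 (N-cadherin) had 64.3, 57.4 and 53.9 CPM in CTRL and 2, 2 and 0 counts in FR2, DSG4 (desmoglein-4) had 0, 1 and 0 counts in CTRL and 29.1, 28.8 and 28.3 CPM in FR2, and CTNNB1, the β-catenin gene that joins cadherins to actin, had a log2 fold change of 0.88 (95% interval 0.77 to 0.99), below the fold threshold.

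Guidance ligands and receptors had 32 DEGs among 46 genes, 11 higher and 21 lower, and a median absolute log2 fold change of 2.53. EPHB6 (chr7:142855061-142871094), an ephrin receptor without kinase activity that is known from T cells, had 229, 246 and 217 CPM in CTRL and 0.280, 0.0566 and 0.286 in FR2, a log2 fold change of -10.07 ± 0.16 (SE). SLIT1 (chr10:96998038-97185959), a secreted ligand of Robo receptors, had 205, 214 and 206 CPM in CTRL and 0.448, 0.622 and 0.744 in FR2. FLRT3, a membrane protein with leucine-rich repeats, rose from 3.06 ± 0.455 to 63.1 ± 3.89 CPM. The T cell markers fell across the same libraries as EPHB6, and their part in its fall was not tested.

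**Figure D4:**
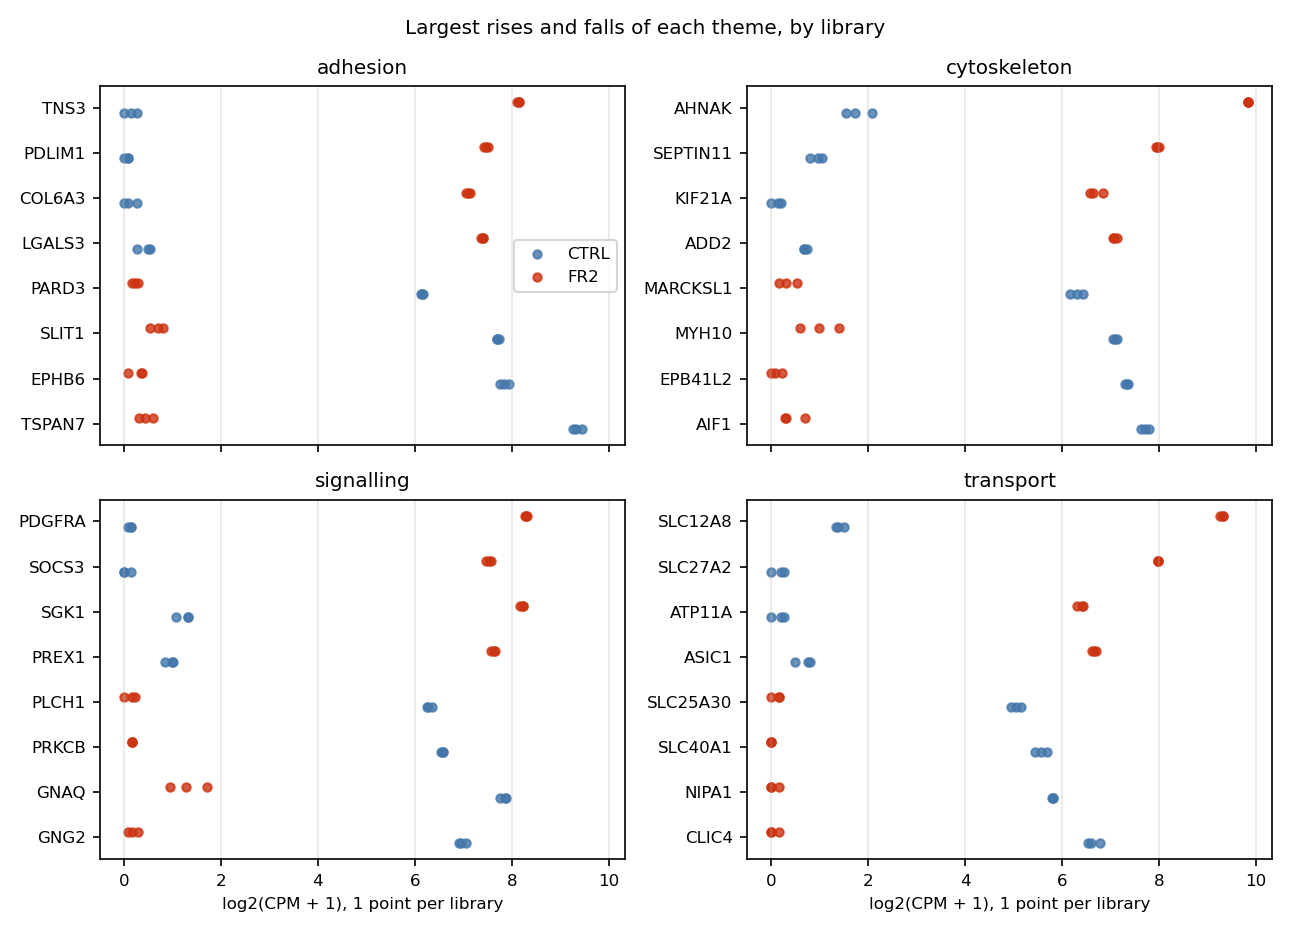
The 4 largest rises and 4 largest falls of each theme by log2((mean CPM of FR2 + 1)/(mean CPM of CTRL + 1)), shown as log2(CPM + 1) with 1 point per library, CTRL in blue and FR2 in red. In each of the 32 genes the 3 libraries of a group lie close together and far from those of the other group. The genes were chosen for this difference in the same libraries, and the groups did not overlap for 81.2% of all tested genes.

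The membrane skeleton, which underlies the plasma membrane, had 34 DEGs among 50 genes, 20 higher and 14 lower. AHNAK (chr11:62433542-62556235), a very large scaffold protein below the membrane, had 2.299, 1.90 and 3.23 CPM in CTRL and 912, 914 and 918 in FR2, a log2 fold change of 8.52 ± 0.095 (SE). ADD2 (β-adducin, chr2:70607618-70768225), which caps actin and joins it to spectrin, had 0.664, 0.600 and 0.597 CPM in CTRL and 139, 132 and 134.1 in FR2. EPB41L2 (chr6:130839347-131063322), a band 4.1 protein, had 163, 156 and 162 CPM in CTRL and 3, 1 and 0 counts in FR2, at least 945-fold lower. Transcripts for proteins of this layer thus differed in both directions.

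Actin-binding proteins had 51 DEGs among 92 genes, 25 higher and 26 lower, and actins with their nucleators had 23 among 57, 15 higher and 8 lower. AIF1 (chr6:31615217-31617021), a calcium-binding protein that bundles actin, had 221, 197 and 208 CPM in CTRL and 0.616, 0.226 and 0.229 in FR2. MARCKSL1 (chr1:32333839-32336233), a substrate of protein kinase C at the membrane, had 85.8, 78.8 and 70.6 CPM in CTRL and 0.448, 0.113 and 0.229 in FR2. The kelch-like gene KLHL4 rose from 0.184 ± 0.152 to 79.2 ± 1.13 CPM. Among formins, which build straight actin filaments, FMN2 had 1, 0 and 1 counts in CTRL and 13.9, 13.9 and 13.6 CPM in FR2, and INF2 fell from 56.3 ± 4.11 to 0.284 ± 0.1002 CPM. ACTB, β-actin itself, had a log2 fold change of 0.32 (95% interval 0.19 to 0.46), and reads of actin paralogs cannot be assigned with certainty.

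Myosins and their regulators had 24 DEGs among 48 genes, 16 higher and 8 lower. MYO1F, a class I myosin of blood cells, had 2.50, 2.45 and 2.59 CPM in CTRL and 156, 163 and 157 in FR2, while MYH10 (chr17:8474207-8631376), the heavy chain of non-muscle myosin IIB, had 131, 135 and 140.0 in CTRL and 1.62, 0.509 and 0.972 in FR2. Intermediate filaments, lamins and septins had 21 DEGs among 32 genes, 10 higher and 11 lower. SEPTIN11 (chr4:76949751-77040384), a filament-forming GTPase, had 1.07, 0.750 and 0.945 CPM in CTRL and 257, 244 and 248 in FR2, and INA, the neuronal intermediate filament α-internexin, had 52.0, 49.4 and 44.2 CPM in CTRL and 0, 0 and 1 counts in FR2. Microtubule genes had the lowest share of DEGs of the cytoskeletal families, 48 among 149 genes (32.2%), 17 higher and 31 lower. KIF21A (chr12:39293228-39443390), a kinesin, had 3, 0 and 2 counts in CTRL and 98.8, 94.4 and 114 CPM in FR2, at least 678-fold higher, and STMN3, a stathmin that destabilises microtubules, fell from 121 ± 4.76 to 4.19 ± 0.631 CPM. The abundant tubulins TUBA1B and TUBB had log2 fold changes of -0.17 (95% interval -0.30 to -0.05) and -0.17 (-0.29 to -0.05), and both share reads with near-identical paralogs.

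Receptor tyrosine and serine kinases had 25 DEGs among 35 genes, 11 higher and 14 lower. PDGFRA (chr4:54229280-54298245), a platelet-derived growth factor receptor that marks mesenchymal cells, had 2, 1 and 2 counts in the CTRL libraries and 315, 310.1 and 318 CPM in FR2, at least 2083-fold higher. CSF1R, the macrophage growth factor receptor, rose from 0.923 ± 0.245 to 5.45 ± 0.286 CPM and was the 1 gene that passed of the myeloid list, whose sum was 4.80 to 6.67 CPM in CTRL and 10.1 to 10.8 in FR2. RYK, a Wnt-binding receptor without kinase activity, fell from 51.2 ± 0.762 to 0.282 ± 0.169 CPM. PDGFRA stood on the fibroblast list, of which 5 genes were in the table and 3 were tested. All 3 were higher in FR2 and the list summed to 0.153 to 0.250 CPM in CTRL and 317 to 325 in FR2, almost all of it PDGFRA itself, while DCN, the matrix proteoglycan of fibroblasts, averaged 0 and 0.0381 CPM. As the largest rise of the signalling genes, PDGFRA is shown with the 250 bases before its RefSeq start, which is also a GENCODE transcript start (GRCh38.p14, chr4:54229043-54229292, plus strand), with CpG dinucleotides in capitals:
PDGFRA promoter: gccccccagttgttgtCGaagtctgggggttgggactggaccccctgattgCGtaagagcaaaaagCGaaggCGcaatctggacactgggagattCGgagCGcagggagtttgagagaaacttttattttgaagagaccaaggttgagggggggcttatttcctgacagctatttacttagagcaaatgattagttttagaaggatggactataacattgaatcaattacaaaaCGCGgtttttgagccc
This window holds 8 CpG dinucleotides, fewer than the median of 20 over the 10985 tested genes with an entry, and 83.8% of those windows hold as many or more. The CpG count is a description of the sequence, and methylation was not measured.

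G protein-coupled receptors, G proteins and their regulators had 98 DEGs among 186 genes, 45 higher and 53 lower. GPR183, an oxysterol receptor that guides lymphocyte migration, rose from 0.269 ± 0.0810 to 120.0 ± 3.32 CPM. GNG2 (chr14:51826195-51979342), a γ subunit, had 133, 123.4 and 119 CPM in CTRL and 0.224, 0.0566 and 0.114 in FR2, and GNAQ (chr9:77716097-78031811), the α subunit that activates phospholipase Cβ, had 214, 232 and 234.9 CPM in CTRL and 2.29, 1.41 and 0.915 in FR2. GNAS, the stimulatory α subunit, was expressed in both groups with a log2 fold change of 0.36 (95% interval 0.25 to 0.46).

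Phosphoinositide enzymes and protein kinases B and C had 51 DEGs among 110 genes, 33 higher and 18 lower. SGK1 (chr6:134169248-134318112), a kinase activated through PI3-kinase, had 1.48, 1.10 and 1.49 CPM in CTRL and 301, 302 and 285 in FR2. PRKCB (chr16:23835983-24220611), protein kinase Cβ, had 95.2, 92.4 and 94.9 CPM in CTRL and 2, 2 and 2 counts in FR2, at least 555-fold lower. PLCH1 (chr3:155375580-155745071), a phospholipase C, had 75.003, 81.4 and 76.7 CPM in CTRL and 2, 0 and 3 counts in FR2.

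Ras and Rap genes had 40 DEGs among 75 (53.3%), 21 higher and 19 lower. PREX1 (chr20:48624252-48827999), an exchange factor that activates Rac, had 1.02, 0.801 and 0.995 CPM in CTRL and 201, 199 and 190.5 in FR2, whereas RHOH, a GTPase-deficient protein of blood cells, had 352, 328 and 316 in CTRL and 3.19, 4.41 and 3.89 in FR2. Around Rap, which activates integrins, the cAMP-regulated exchange factor RAPGEF4 rose from 0.637 ± 0.1001 to 137 ± 2.21 CPM and the inactivator RAP1GAP2 fell from 75.8 ± 2.65 to 0.151 ± 0.0671 CPM. RHOA had a log2 fold change of -0.25 (95% interval -0.37 to -0.13).

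Among JAK, STAT, SOCS and SMAD genes, 13 of 40 rose and 6 fell. SOCS3 (chr17:78356778-78360077), an inhibitor of cytokine receptor signalling, had 0, 0 and 2 counts in CTRL and 185, 190.2 and 177 CPM in FR2, at least 1219.8-fold higher, and SOCS6 fell from 22.4 ± 1.69 to 0.207 ± 0.115 CPM. MAP kinase cascades had 31 DEGs among 89 genes (34.8%), 23 higher and 8 lower. Of the phosphatases that switch off ERK, DUSP5 rose from 0.202 ± 0.103 to 46.6 ± 2.66 CPM and DUSP6 fell from 31.4 ± 0.971 to 0.339 ± 0.146 CPM. SGK1, SOCS3 and DUSP5 belong to genes that cells induce within hours of a stimulus, and the immediate early and stress list moved in the same libraries. Of its 10 genes, 9 were higher in FR2, and its sum ran from 82.8 to 96.3 CPM in CTRL and 344 to 367 in FR2. Its part in these results was not tested. Tyrosine phosphatases had 9 of 38 genes higher and 10 lower. The receptor phosphatase PTPRJ (CD148) had 3, 0 and 1 counts in CTRL and 55.6, 54.5 and 56.3 CPM in FR2, PTPRF (LAR) had 71.0, 75.4 and 71.7 CPM in CTRL and 2, 1 and 1 counts in FR2, and PTP4A2 had a log2 fold change of 0.68 (95% interval 0.56 to 0.79).

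Potassium channels had 29 DEGs among 50 genes, 8 higher and 21 lower, so that 42.0% fell where 19.6% did over all tested genes. Of the 50, 6 were on in CTRL and at the floor in FR2 (12%, with 3.74% over all tested genes). KCNK17, a potassium leak channel, had 18.1, 19.7 and 18.01 CPM in CTRL and 0, 0 and 1 counts in FR2, and KCNA2 (Kv1.2) had 4, 1 and 0 counts in CTRL and 14.5, 17.1 and 16.9 CPM in FR2. Calcium and other cation channels had 46 DEGs among 93 genes, 29 higher and 17 lower. ASIC1 (chr12:50057548-50083611), a sodium channel opened by acid, had 0.409, 0.700 and 0.746 CPM in CTRL and 97.2, 104 and 99.8 in FR2, and SCN8A, a voltage-gated sodium channel, had 30.0, 31.6 and 34.6 in CTRL and 2, 2 and 1 counts in FR2. Anion and ligand-gated channels split evenly, with 12 of 52 higher and 12 lower. CLIC4 (chr1:24745382-24844321), a chloride intracellular channel protein, had 109, 96.6 and 92.1 CPM in CTRL and 2, 0 and 0 counts in FR2, at least 585-fold lower, and GRIK2, a kainate receptor subunit, rose from 0.251 ± 0.00352 to 7.21 ± 0.649 CPM. VDAC1, the mitochondrial outer membrane channel, had a log2 fold change of -0.22 (95% interval -0.33 to -0.11).

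Inorganic ion and metal carriers had 43 DEGs among 81 genes, 27 higher and 16 lower. SLC12A8 (chr3:125082636-125212864), of the cation-chloride cotransporter family, had 1.58, 1.85 and 1.54 CPM in CTRL and 642, 640.2 and 613 in FR2, a log2 fold change of 8.57 ± 0.085 (SE) with the smallest adjusted p among the 32 leading genes, 2.13e-21 by edgeR's quasi-likelihood test with Benjamini-Hochberg adjustment. SLC40A1 (ferroportin, chr2:189560590-189583758), the iron exporter, had 46.5, 50.9 and 42.8 CPM in CTRL and 0, 0 and 0 counts in FR2, at least 275-fold lower. NIPA1 (chr15:22773063-22829789), a magnesium transporter, had 54.6, 55.5 and 55.4 CPM in CTRL and 0, 0 and 2 counts in FR2, at least 325-fold lower. A count of 0 still allows up to 3 counts of SLC40A1 per FR2 library.

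Families of carriers for organic solutes had shares of DEGs near the background of 38.2%. Vitamin, lipid and other carriers had 31 DEGs among 76 genes (16 higher, 15 lower), sugar, nucleoside and monocarboxylate carriers 21 among 59 (9 and 12), and amino acid, peptide and amine carriers 17 among 44 (7 and 10). SLC27A2 (chr15:50182196-50236385), which activates very long chain fatty acids, had 4, 0 and 3 counts in CTRL and a mean of 252 ± 0.177 CPM in FR2. SLC7A11, the cystine and glutamate exchanger, had 5.52, 8.01 and 10.5 CPM in CTRL and 66.9, 64.3 and 64.3 in FR2, with the CTRL libraries more widely spread than the FR2 libraries. SLC18A2, a vesicular monoamine transporter, fell from 19.6 ± 0.941 to 0.283 ± 0.115 CPM and AQP3, a water and glycerol channel, from 31.9 ± 1.84 to 0.208 ± 0.0677 CPM. The glucose transporter gene SLC2A8 had 2, 0 and 0 counts in CTRL and 33.5, 35.3 and 30.7 CPM in FR2, and SLC16A9, of the monocarboxylate carrier family, had 12.3, 12.3 and 11.05 CPM in CTRL and 1, 3 and 0 counts in FR2.

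Pumps and flippases had 14 of 61 genes higher and 8 lower, and ABC transporters had 10 of 32 higher and 3 lower. Their shares of DEGs were 36.1% and 40.6%, near the 38.2% over all tested genes. Which direction led in transport as a whole depended on the scaling, and this was not tested for these families. ATP11A (chr13:112690038-112887168), a phospholipid flippase, had 0, 4 and 3 counts in CTRL and 85.4, 78.9 and 84.9 CPM in FR2, and ATP9A fell from 58.1 ± 0.678 to 2.09 ± 0.0902 CPM. ABCD2, a peroxisomal fatty acid transporter, rose from 2.28 ± 0.0513 to 151 ± 7.49 CPM, and ABCB1, the drug efflux pump P-glycoprotein, had 35.1, 35.5 and 37.8 in CTRL and 1.79, 1.13 and 2.06 in FR2. Mitochondrial carriers had the lowest share of DEGs of the transport families (24.4%), with 5 of 45 higher and 6 lower. SLC25A44 rose from 39.4 ± 1.48 to 135 ± 3.07 CPM and SLC25A30 (chr13:45393316-45418455) had 34.6, 29.8 and 32.3 CPM in CTRL and 2, 2 and 0 counts in FR2. The abundant carriers of adenine nucleotides (SLC25A5) and phosphate (SLC25A3) had log2 fold changes of 0.49 (95% interval 0.38 to 0.60) and -0.58 (-0.69 to -0.48), both below the fold threshold.

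Across the 32 leading genes, the standard error of the log2 fold change lay between 0.085 and 0.26, and the adjusted p between 2.13e-21 and 2.86e-16 (edgeR's quasi-likelihood test with Benjamini-Hochberg adjustment). The 12 abundant genes named above for staying below the fold threshold also had an adjusted p of at most 0.05 each. So did 80.2% of all 13657 tested genes, so this does not set the 12 apart. With the small spread between libraries of a group, differences well under 1 on the log2 scale were detectable.

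The same genes were read in the groups that share markers with each side. These comparisons share the CTRL or the FR2 libraries with the comparison above, so values are given side by side only. In hnCD16 against CTRL, both groups had low summed NK marker levels. Here 72 of 13657 genes were DEGs (0.527%, with 0.212% higher and 0.315% lower in hnCD16), and 17 of them were among the 2049 genes. In the order CTRL, hnCD16, FR1 and FR2, TNS3 averaged 0.0999, 0.197, 376 and 280.1 CPM, and PDGFRA 0.0839, 0.0713, 299 and 314 CPM. TSPAN7 averaged 651, 825, 0.288 and 0.357 CPM, and CLIC4 99.2, 116, 0.0766 and 0.0373. For these 4 genes the hnCD16 mean lay by CTRL and the FR1 mean by FR2. Of the 32 leading genes, 2 were DEGs in hnCD16. SOCS3 had 0, 0 and 2 counts in CTRL and 7, 2 and 5 counts in hnCD16, with 2.68 ± 0.76 (SE) as its log2 fold change at very low counts. ASIC1 averaged 0.619 CPM in CTRL and 0.306 in hnCD16, opposite in direction to its rise in FR2. Its counts were also low and overlapped, at 8, 14 and 15 in CTRL and 5, 9 and 3 in hnCD16. SLC7A11 was higher in hnCD16 (13.8, 15.0 and 20.3 CPM) than in CTRL (5.52, 8.01 and 10.5 CPM), with 1.03 ± 0.16 (SE) as its log2 fold change.

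FR2 and FR1 differ in construct only by the 2B4 domain. Their NK marker sums were close, at 4952 to 5203 CPM in FR1 and 4867 to 4967 in FR2. The T cell sum was 144 to 149 CPM in FR1 and 173 to 185 in FR2. Single NK markers differed in both directions, with means in FR1 and FR2 of 29.4 and 9.54 CPM for GNLY and 423 and 543 for PRF1. Between FR2 and FR1, 264 of 13657 genes were DEGs (1.93%, with 1.49% higher and 0.439% lower in FR2). Of the 2049 genes, 61 were DEGs, 48 higher and 13 lower in FR2. By theme these were 16 adhesion, 7 cytoskeletal, 19 signalling and 19 transport genes. FCGR3A was itself higher in FR2, at 61.3 ± 3.15 CPM, than in FR1, at 32.4 ± 0.435 CPM, a log2 fold change of 0.92 ± 0.058 (SE) that stayed below the fold threshold.

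The largest falls from FR1 to FR2 were in MMP7 (matrilysin, a matrix protease), which had 56, 47 and 59 counts in FR1 and 3, 2 and 1 in FR2, and in RGS1, a regulator that shortens G protein signals, which had 32.5, 31.7 and 27.9 CPM in FR1 and 6.38, 5.83 and 5.55 in FR2. The log2 fold change of RGS1 was -2.37 ± 0.11 (SE). RASA3, an inactivator of Ras and Rap, was low in both, at 1.54 ± 0.317 CPM in FR1 and 0.452 ± 0.0516 in FR2, against 33.2 ± 1.41 in CTRL. TSPAN18, ABCA8 and SLC6A5 (a glycine transporter) were also lower in FR2 than in FR1, at mean levels of at most 3.17 CPM in either group.

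Rises from FR1 to FR2 were mostly of low level. RHOB, a small GTPase of endosomes, had 1.74, 0.867 and 1.43 CPM in FR1 and 5.09, 4.47 and 4.98 in FR2. The Ras-related GTPase RRAS averaged 3.11 ± 0.346 CPM in FR1 and 8.03 ± 0.308 in FR2. The formin FMN2 averaged 4.93 ± 0.840 CPM in FR1 and 13.8 ± 0.168 in FR2, and the microtubule-binding CLIP2 3.24 ± 0.506 and 7.86 ± 0.772. For these 4 genes FR2 thus went further than FR1 in the direction away from CTRL. AGRN (agrin) and SLC66A3 differed from FR1 but not detectably from CTRL, with log2 fold changes between FR2 and CTRL of -0.17 (95% interval -0.46 to 0.12) and -0.17 (-0.43 to 0.09). TSPAN5 had 26.5 ± 3.06 CPM in CTRL, 5.32 ± 0.551 in FR1 and 12.4 ± 0.190 in FR2, so FR2 lay between both. SCN1A, a voltage-gated sodium channel, was higher in FR2 (5.60 ± 0.782 CPM) than in FR1 (1.92 ± 0.402) and CTRL (2.48 ± 0.425). ABCB1, at low levels in both FR groups, kept a log2 fold change of 3.07 ± 0.35 (SE) between FR2 and FR1, at 0.116, 0.289 and 0.171 CPM in the FR1 libraries and 1.79, 1.13 and 2.06 in the FR2 libraries.

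**Figure D5:**
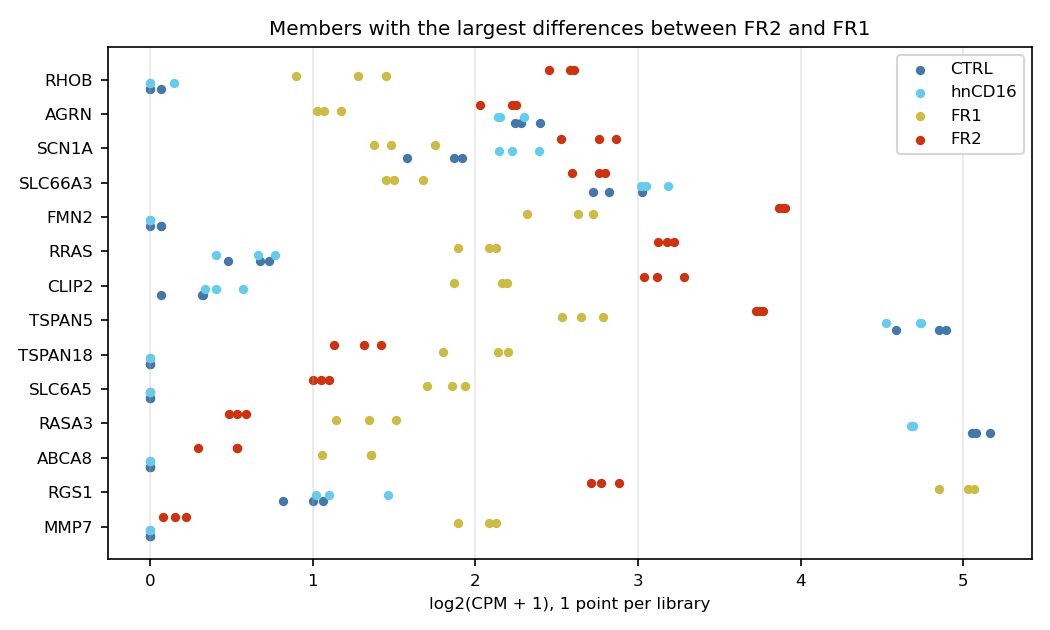
Genes of the 4 themes with the largest differences between FR2 and FR1 (at most 2 rises and 2 falls per theme), as log2(CPM + 1) with 1 point per library in CTRL, hnCD16, FR1 and FR2. RGS1 and MMP7 lie lower in FR2 than in FR1, RHOB, FMN2 and RRAS higher, and the x axis ends near 5, far below the leading genes of FR2 against CTRL.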

How the data were processed

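The 12 RNA-seq libraries were labelled as YT cells carrying eGFP (CTRL), hnCD16, FR1 or FR2, with 3 per group. By the methods of the study, the authors depleted ribosomal RNA (the labels also name oligo(dT) beads), filtered reads with SOAPnuke 1.5.6, mapped them to GRCh38.p13 and quantified them. The submitters' processing notes also name HISAT2 2.1.0, Bowtie2 2.3.4.3 and RSEM 1.3.1. The deposited expected counts estimate the reads of a gene, by RSEM and without normalization, and a read shared by similar genes can be divided between them. The deposited TPM values were made by the authors from the same reads. Whether counting used strand is not given in the sources used here. A total of 40 other value columns, such as FPKM, were not used here, nor was the table of transcripts.

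Expected counts were rounded to whole numbers. Genes were tested in R 4.3.3 with edgeR 4.0.16 (quasi-likelihood test, TMM scaling) after filterByExpr, in 1 fit of the 4 groups without covariates. Adjusted p-values are Benjamini-Hochberg values over 13657 genes per comparison. A DEG needed a log2 fold change of 1 or more in size and an adjusted p no higher than 0.05. Because neither labels nor methods tie the libraries to separate cultures, p-values measure the spread between these libraries, which may be technical. Fold changes given as "at least" are set against 3 counts per library, and these floors cover counting error only. No library pair of a group agreed within sampling noise, with a chi-square per gene of 2.06 to 12.3.

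Members and gene lists were chosen with earlier results of these data known. Named genes were, per theme, the 4 largest rises and falls by log2((mean CPM of FR2 + 1)/(mean CPM of CTRL + 1)) among DEGs and the 3 most abundant genes that were not DEGs, per family the largest rise and fall, and per theme up to 2 rises and 2 falls between FR2 and FR1. Some genes and 1 family are not reported here. All integrin chains were plotted, and further chains, PECAM1 and CSF1R were named after their values were seen. On counts simulated for FR2 against CTRL, the edgeR step was tested and 199 of 199 changed genes were recovered, with 1 unchanged gene also called (13406 genes tested in all). In that run a much smaller share of genes differed than the 38.2% that were DEGs between FR2 and CTRL. How the edgeR step and TMM scaling behave at a share of 38.2% was not tested. Alternatives were DESeq2 1.42.0, log2 TPM in limma 3.58.1 with a pseudocount of 1 or 0.1, other scalings and filters, only the groups compared, a replicate block, no fold threshold, and leaving out each library. Coordinates are from GENCODE v44 on GRCh38, the promoter is from RefSeq on GRCh38.p14, and figures used matplotlib 3.10.9.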

Additional observations from a re-analysis of the deposited data

How the results depend on the processing

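Between FR2 and CTRL, the 102 named genes kept their direction in each of the 1459 values that the alternatives gave, and 1452 of 1459 values of named genes stayed on the same side of the thresholds. The other 7 no longer passed, MMP7, TSPAN18, ABCA8, SLC6A5 and SCN1A among them, all with limma on TPM, where the pseudocount shrinks changes of low genes. The fit of only the groups compared gave values for 100 of these genes. Requiring at least 10 counts in every library, which removes genes silent in a group, gave values for only 33 of them and left 2965 DEGs between FR2 and CTRL, with 89 adhesion, 106 cytoskeletal, 181 signalling (116 higher and 65 lower) and 128 transport genes (77 and 51), 73 DEGs between FR2 and FR1 and 8 between hnCD16 and CTRL. Without a fold threshold there were 10948 DEGs between FR2 and CTRL, 366 cytoskeletal, 566 signalling and 445 transport genes, 4939 DEGs between FR2 and FR1 and 5874 between hnCD16 and CTRL. Limma on log2(TPM + 1) gave 161 transport genes (74 higher and 87 lower), 58 DEGs between FR2 and FR1 and 6 between hnCD16 and CTRL. For hnCD16 against CTRL, DESeq2 gave 32 DEGs and the fit of only these groups 47. Leaving out each library in turn gave 5276 to 5327 DEGs between FR2 and CTRL, 200 to 211 adhesion, 197 to 206 cytoskeletal, 344 to 350 signalling and 256 to 263 transport genes, 250 to 287 between FR2 and FR1 and 74 to 87 between hnCD16 and CTRL. Scaling by library size only moved the median log2 fold change of all genes between FR2 and CTRL by -0.13, from -0.04. It gave 169 higher and 170 lower signalling genes and 126 higher and 130 lower transport genes.

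The replicate numbers were not taken to pair the libraries, since deviations of same-numbered FR2 and CTRL libraries correlated at 0.0704, -0.0105 and 0.201 across genes and not every FR2 library correlated best with the CTRL library of its own number. For hnCD16 and CTRL the same correlations were 0.338, 0.0196 and 0.404. Their mean was 0.254, beside -0.127 for pairs of unlike number, where hnCD16 replicate 3 and CTRL replicate 1 reached -0.416. Whether libraries of the same number share a batch or order was not tested. With the replicate number as a block there were 5233 DEGs between FR2 and CTRL, with 198 adhesion, 201 cytoskeletal, 342 signalling and 257 transport genes, 275 between FR2 and FR1 and 75 between hnCD16 and CTRL. Depth limits values near 0, where 3 counts correspond to about 0.16 CPM per library. The difference in cell type markers between CTRL and FR2 could not be removed by any alternative, because no library of either group has the profile of the other.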

Other observations

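Further genes differed between FR2 and FR1 at moderate levels. They were picked after their values were seen. S1PR1, the sphingosine-1-phosphate receptor that guides lymphocytes out of lymph nodes, had 8.28, 7.55 and 7.41 CPM in CTRL, 2.89, 3.58 and 2.57 in FR1 and 5.76, 6.51 and 6.23 in FR2. S1PR1 was not a DEG between FR2 and CTRL. SLC44A2, a choline transporter, had 20.5 ± 0.672 CPM in CTRL, 16.05 ± 0.484 in FR1 and 35.9 ± 1.92 in FR2, and MICAL1, an enzyme that oxidises actin, 20.3 ± 1.82, 6.54 ± 0.619 and 13.7 ± 0.921.

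Among the 17 genes of the 4 themes that were DEGs between hnCD16 and CTRL, RHOU, an atypical small GTPase picked after its values were seen, had 5.72, 6.30 and 5.72 CPM in CTRL and 15.1, 15.3 and 13.8 in hnCD16, while its mean was 9.38 ± 0.551 CPM in FR2. FSCN1 (fascin), which bundles actin in protrusions, fell from 9.68 ± 0.635 CPM in CTRL to 4.53 ± 1.18 in hnCD16 and was at 0.207 ± 0.0854 in FR2. OPCML and CELSR2, adhesion genes that were higher in FR2 than in CTRL, were lower in hnCD16 than in CTRL. They were at 0.306 and 0.431 CPM in hnCD16, 0.654 and 0.904 in CTRL and 46.7 and 17.1 in FR2. Both were thus low in hnCD16 and CTRL, where 3 counts correspond to about 0.16 CPM per library.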
